A study of Mus musculus with 10 samples.

Results

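Lipf, Dmbt1, Tff2, Gp2, Bpifb1, Bpifa1, Muc5b, Wfdc2, Lyz1 and Lyz2 encode proteins that mucosal and glandular epithelia, or cells housed among them, release onto a wet surface. They were selected on the D257A against WT signals of these same 10 cochlea arrays, so their group differences are given as description, with standard errors and without a p-value. The 10 genes are carried by 13 probe sets, of 18193 genes that the platform table names through a probe set of 1 gene. A probe set is the set of short probes read together as 1 transcript. Of these, 8 genes have 1 probe set each, Bpifb1 has 2 and Lyz1 has 3.

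The series compared 5 D257A samples with 5 WT samples, all cochlea of male mice aged 9 months. D257A mice carry the D257A allele of Polg on both chromosomes (PolgD257A/D257A), and WT mice are Polg+/+. Polg encodes the catalytic subunit of mitochondrial DNA polymerase gamma, and the D257A change disables its proofreading, so mitochondrial DNA gathers mutations with age. Both groups were housed under the same conditions, and the labels name no treatment, Cre driver or transgene for either group. Neither do they say whether a sample is 1 animal or a pool, and the design text states that no replicates were done. Here n counts arrays, and any p-value measures the spread between these samples, which may be technical.

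Mucosal glands and goblet cells release mucins, trefoil peptides and antimicrobial proteins that coat an epithelium, trap particles and hold microbes back. In the ear this kind of secretion belongs to the lining and glands of the middle ear and the auditory tube, which are continuous with the upper airway, while the cochlea itself is a closed fluid-filled organ with no mucosa. Lipf, Dmbt1, Tff2, Gp2, Bpifb1, Bpifa1, Muc5b, Wfdc2 and Lyz1 are best known from stomach, pancreas, salivary gland, airway and intestine, whereas Lyz2 is best known from macrophages and neutrophils.

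Of the members, 7 had a promoter window in the RefSeq table (build GRCm38.p6), which gives 250 bases before and 50 after the annotated start. Dmbt1, Tff2 and Muc5b are named only. The windows of 6 genes are printed 5′ to 3′ on the gene's strand, because they let a reader compare regulatory sequence of genes whose signals differed most with that of Bpifa1, whose difference was the smallest among the members. The Lyz1 and Lyz2 windows also show how alike the 2 lysozyme genes are. Capitals mark matches to TATAAA (a form of the TATA box) and TGTTTNC (a core of the forkhead factor motif). They also mark ACTTCCTG (a form of the ETS factor motif). Both strands were searched, and matches to different motifs did not overlap. Other forms of these motifs were not searched, so a window without a marked match may still hold one.
Lipf, chr19:33960998-33961297 (plus strand): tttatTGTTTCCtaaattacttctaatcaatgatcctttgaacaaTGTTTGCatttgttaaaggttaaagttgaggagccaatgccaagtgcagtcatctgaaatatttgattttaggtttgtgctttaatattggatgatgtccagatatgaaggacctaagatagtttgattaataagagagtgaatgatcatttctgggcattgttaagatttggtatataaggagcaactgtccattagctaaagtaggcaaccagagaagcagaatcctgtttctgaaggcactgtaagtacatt
Gp2, chr7:119459223-119459522 (minus strand): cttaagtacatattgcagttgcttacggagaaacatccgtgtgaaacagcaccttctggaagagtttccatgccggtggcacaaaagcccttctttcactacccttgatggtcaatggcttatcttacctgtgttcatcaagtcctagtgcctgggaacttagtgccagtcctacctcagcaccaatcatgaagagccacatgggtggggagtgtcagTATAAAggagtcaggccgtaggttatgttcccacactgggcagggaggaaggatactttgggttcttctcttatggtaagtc
Bpifb1, chr2:154190568-154190867 (plus strand): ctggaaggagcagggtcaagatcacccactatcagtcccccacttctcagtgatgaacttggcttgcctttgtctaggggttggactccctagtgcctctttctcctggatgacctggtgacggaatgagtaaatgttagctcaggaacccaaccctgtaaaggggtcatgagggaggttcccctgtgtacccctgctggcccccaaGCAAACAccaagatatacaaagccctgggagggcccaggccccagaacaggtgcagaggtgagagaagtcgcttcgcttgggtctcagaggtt
Bpifa1, chr2:154142630-154142929 (plus strand): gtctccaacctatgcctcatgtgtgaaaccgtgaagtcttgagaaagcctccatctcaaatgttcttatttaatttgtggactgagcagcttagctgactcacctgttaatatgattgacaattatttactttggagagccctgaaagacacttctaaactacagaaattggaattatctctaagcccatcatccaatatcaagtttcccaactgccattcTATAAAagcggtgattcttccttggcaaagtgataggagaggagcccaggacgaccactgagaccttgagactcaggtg
Lyz1, chr10:117292819-117293118 (minus strand): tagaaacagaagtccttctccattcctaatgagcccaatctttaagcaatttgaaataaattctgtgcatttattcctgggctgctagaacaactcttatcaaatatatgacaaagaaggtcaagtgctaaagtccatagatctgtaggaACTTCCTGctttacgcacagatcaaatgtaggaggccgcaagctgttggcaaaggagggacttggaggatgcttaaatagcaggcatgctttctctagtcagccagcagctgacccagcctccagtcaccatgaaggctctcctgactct
Lyz2, chr10:117282223-117282522 (minus strand): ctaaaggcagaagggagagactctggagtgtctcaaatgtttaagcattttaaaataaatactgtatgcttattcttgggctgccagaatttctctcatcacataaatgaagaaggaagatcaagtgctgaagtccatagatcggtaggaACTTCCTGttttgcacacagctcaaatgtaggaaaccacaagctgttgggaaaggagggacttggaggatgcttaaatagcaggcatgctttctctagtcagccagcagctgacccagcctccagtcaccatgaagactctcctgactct

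TATAAA began 32 bases before the start of Gp2 and 29 before that of Bpifa1. TGTTTNC began 245 and 205 bases before the start of Lipf, and on the opposite strand 43 bases before that of the printed Bpifb1 window. Bpifb1 and Wfdc2 have 2 windows each. The other Bpifb1 window (chr2:154200130-154200429), which is not printed, held 0 matches to these motifs. ACTTCCTG began 100 bases before the start of both Lyz1 and Lyz2. Each motif was found in 2 of the 9 windows of the members, against 13.6% (TATAAA), 20.5% (TGTTTNC) and 3.33% (ACTTCCTG) of all 32851 windows in the table. The 9 windows are not independent, since those of Wfdc2 start at positions 164562465 and 164562466 of chromosome 2. Both ACTTCCTG matches lie in the Lyz1 and Lyz2 windows, which are much alike. No enrichment is read from these shares. A match is a stretch of letters and does not show that a factor binds there. The Lyz1 and Lyz2 windows had 249 identical positions in 302 aligned columns (82.5%), and 99 of the last 100 bases were identical. The genes themselves are neighbours: in the RefSeq annotation no protein-coding gene lies between Lyz2 and Lyz1 on chromosome 10, and 1, Bpifa5, lies between Bpifa1 and Bpifb1 on chromosome 2.

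The deposited values are linear array intensities, called signals here, on a scale that the authors had already set. Their trimmed mean was 1494 to 1496 on all arrays, and the median signal was 551.7 to 649.3. D257A replicate 2 and WT replicate 3 were the arrays least like their own groups (mean correlation with the group's other arrays 0.890 and 0.914). WT replicate 1 was unlike the other WT arrays in most of the secretory genes, though not over all probe sets (mean correlation with the group's other arrays 0.935), and values without it are given below. The label cochlea was borne out by cochlear genes: Coch, which encodes the abundant extracellular protein cochlin, had 57563 to 80130 units on D257A arrays and 65511 to 83744 on WT arrays. Signals of the hair cell genes Pou4f3, Slc26a5 and Strc stayed at or below 403.4, 336.2 and 459.9 units on every array. Another hair cell gene, Myo7a, was brighter, with 863.4 to 1401.6 units on D257A arrays and 1117.3 to 1856.1 on WT arrays. The fits below tested the 50% of probe sets with the highest mean log2 signal over all 10 arrays, 22518 in all; turned back from logs, that mean began at 577.4 units. A mean of logs is pulled down by dim arrays, so a probe set that is bright in WT and dim in D257A could stay untested. Each array measures the RNA of a whole tissue sample, so fewer cells of a type and less RNA per cell cannot be told apart.

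All 13 probe sets of the secretory genes had a lower mean log2 signal in D257A than in WT. Lipf, Dmbt1, Bpifb1, Tff2, Muc5b and Gp2 had WT means 14.1 to 83.7 times their D257A means, Lyz1 and Lyz2 2.83 to 6.26 times, Wfdc2 2.14 times and Bpifa1 1.49 times. Of the 13 probe sets 12 were tested; the mean log2 signal of a Lyz1 probe set lay below the tested range. In the limma fit over all tested probe sets, 11 of these 12 were lower in D257A at an adjusted p under 0.05, where 280 of the 22518 tested were called lower (1.24%). The groups did not overlap on any array for 10 of the 12, where 606 of all tested probe sets were lower with no overlap (2.69%). The median log2 fold change, D257A over WT on log2(signal + 16), was −3.88 for the tested probe sets of these genes and −0.000544 for all tested probe sets. Since the genes were chosen from this contrast, nothing is read from these shares.

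**Figure D1:**
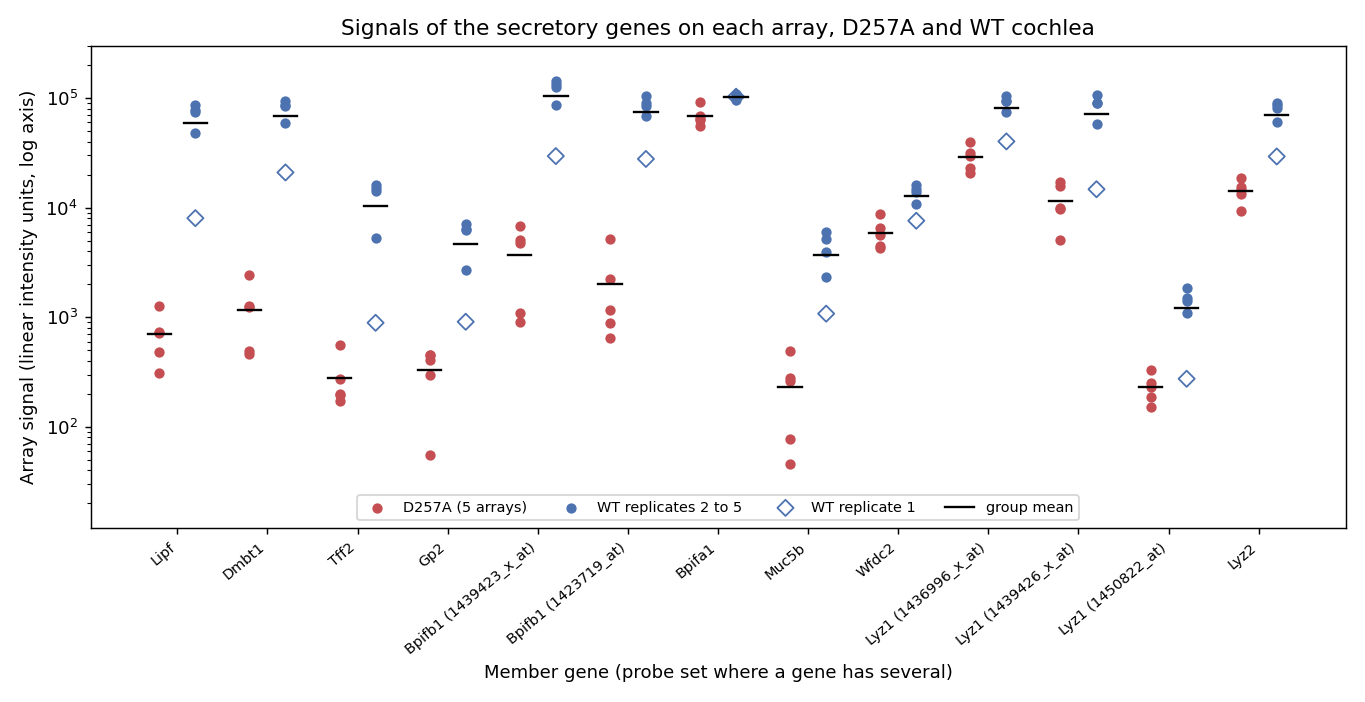
Signal of each probe set on every array (vertical axis, linear intensity units on a log axis), with D257A arrays left of WT arrays, WT replicate 1 as an open diamond and group means as bars. For Lipf the D257A arrays sit between 312.6 and 1263.0 units, all below the 8034.8 units of WT replicate 1, while the Bpifa1 groups sit close together.

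Lipf encodes gastric lipase, a secreted enzyme that begins the digestion of dietary fat. Its signal was 312.6, 724.6, 477.0, 1263.0 and 738.6 units on D257A replicates 1 to 5, against 8034.8, 74561.3, 85890.7, 47957.9 and 77897.2 on WT replicates 1 to 5 (probe set 1416040_at). Every D257A array was below every WT array, and WT replicate 1 was far below the other WT arrays. Lipf averaged 703.2 ± 360.1 units in D257A and 58868 ± 31787 in WT (SD, n = 5 each), a log2 fold change of −6.13 (SE 0.58), the largest of the 13.

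Tff2 encodes a trefoil peptide that is packed with mucins and stabilises the mucous gel. It had 171.8, 271.5, 193.2, 555.4 and 199.4 units on the D257A arrays, against 890.1, 14296.3, 15228.8, 5330.9 and 16211.2 on the WT arrays (1422448_at). All 5 D257A signals lay under 577.4 units, where the tested range begins, and WT replicate 1 was closer to D257A replicate 4 than to any other WT array. The log2 fold change was −4.71 (SE 0.68).

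Muc5b encodes a large gel-forming mucin of airway and salivary glands. Its signal was 280.6, 77.3, 490.3, 46.2 and 259.8 units on the D257A arrays, against 1078.4, 5202.7, 3957.7, 2321.3 and 6050.4 on the WT arrays (1427626_at). Again all D257A signals were dim and no D257A array reached the lowest WT array, which was replicate 1. The log2 fold change was −4.07 (SE 0.59). At signals this dim the fold depends on the added constant, and it was −4.23 with a constant of 1 and −3.70 with 64.

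Dmbt1 encodes a secreted scavenger receptor of mucosal fluids, also called gp340, that binds bacteria and surfactant proteins. It had 465.6, 2410.8, 487.9, 1263.8 and 1244.1 units on the D257A arrays, against 20996.8, 85057.7, 93689.9, 59212.7 and 87210.5 on the WT arrays (1418287_a_at). The arrays did not overlap, and among the WT arrays replicate 1 was lowest and replicate 4 next. Dmbt1 averaged 1174 ± 793.0 units in D257A and 69234 ± 29995 in WT (SD, n = 5 each), a log2 fold change of −5.95 (SE 0.49).

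Gp2 encodes a membrane-anchored glycoprotein of zymogen granules that is also shed into secretions and binds bacterial fimbriae. Its signal was 449.2, 405.6, 450.5, 294.1 and 55.4 units on the D257A arrays, against 909.5, 6211.2, 7163.0, 2713.2 and 6409.9 on the WT arrays (1449452_a_at). D257A replicate 5 was the lowest of all arrays, and no D257A array reached WT replicate 1, the lowest WT array. The log2 fold change was −3.69 (SE 0.62), and without D257A replicate 5 it was −3.19.

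Bpifb1 and Bpifa1 encode secreted proteins of the BPI fold family, relatives of the bactericidal permeability-increasing protein made by airway glands and lining cells. The brighter Bpifb1 probe set had 1098.3, 6815.7, 902.7, 4779.6 and 5086.4 units on the D257A arrays, against 29622.9, 126793.3, 144368.7, 86455.5 and 134770.5 on the WT arrays (1439423_x_at). The suffix x_at marks probes that can also match other transcripts, and on WT replicates 2, 3 and 5 this probe set carried the highest signal of the whole array. The second Bpifb1 probe set had 643.4, 1161.4, 885.7, 5182.1 and 2232.1 units on the D257A arrays, against 27883.2, 84190.4, 104671.1, 68364.2 and 89850.4 on the WT arrays (1423719_at). Both probe sets separated the groups without overlap, with log2 fold changes of −5.03 (SE 0.60) and −5.49 (SE 0.51).

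Bpifa1 differed from its neighbour. Its signal was 56288.3, 65219.4, 63295.9, 68269.0 and 93253.1 units on the D257A arrays, against 103163.2, 99610.2, 108072.9, 95721.1 and 108835.0 on the WT arrays (1420347_at). The groups did not overlap, yet D257A replicate 5 came close to the lowest WT array, which was replicate 4. Bpifa1 averaged 69265 ± 14114 units in D257A and 103080 ± 5573 in WT (SD, n = 5 each), a log2 fold change of −0.59 (SE 0.14). It was the 1 tested probe set of these genes that was not called in the main fit. Fits with median centring, quantile normalization or array weights did call it. So did the fits on the brightest 30% of probe sets and without D257A replicate 5. These signals lie near the top of the scale, where the highest signal of any probe set was 103163 to 166328 units on the 10 arrays, and on WT replicate 1 the highest was Bpifa1 itself; whether the probes were close to saturation was not tested.

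Wfdc2 encodes a small secreted protein with whey acidic protein (WAP) domains, also called HE4, found in airway and genital tract epithelium. It had 4431.0, 5683.9, 4277.3, 6497.6 and 8792.0 units on the D257A arrays, against 7609.3, 14793.2, 14038.5, 10867.0 and 16265.2 on the WT arrays (1424351_at). The groups overlapped, because D257A replicate 5 was above WT replicate 1. Wfdc2 averaged 5936 ± 1841 units in D257A and 12715 ± 3470 in WT (SD, n = 5 each), a log2 fold change of −1.10 (SE 0.25). Of the 10 fits that each left out 1 array, only those without D257A replicate 5 or WT replicate 1 kept its call.

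Lyz1 and Lyz2 encode lysozymes, enzymes that cleave bacterial cell walls. Lyz1 is the form of Paneth cells, and Lyz2 that of macrophages and neutrophils, although airway glands also make lysozyme. The 2 genes are close copies, and their probe sets may each read transcripts of both. Lyz2 had 18850.5, 14376.4, 15596.4, 9256.2 and 13431.7 units on the D257A arrays, against 29373.2, 81971.4, 90815.8, 60798.5 and 87134.9 on the WT arrays (1423547_at). Its groups were apart, with WT replicate 1 lying between the D257A arrays and the other WT arrays. The log2 fold change was −2.22 (SE 0.30).

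The brightest Lyz1 probe set had 31486.9, 39883.7, 20545.6, 22960.5 and 29827.8 units on the D257A arrays, against 40312.9, 95216.8, 105259.4, 74223.3 and 95143.3 on the WT arrays (1436996_x_at). D257A replicate 2 came close to WT replicate 1 without passing it. In a second Lyz1 probe set the signals were 17059.2, 15750.4, 9892.5, 5091.7 and 9784.0 units on the D257A arrays, against 14750.6, 89546.5, 107087.4, 58225.0 and 90801.3 on the WT arrays (1439426_x_at). Here D257A replicates 1 and 2 were above WT replicate 1. The third, whose mean log2 signal was below the tested range because of its dim D257A arrays, had 187.2, 328.9, 252.1, 150.2 and 231.7 units on the D257A arrays, against 274.5, 1509.6, 1860.5, 1093.5 and 1400.1 on the WT arrays (1450822_at). It too overlapped at WT replicate 1. The log2 fold changes were −1.47 (SE 0.26), −2.49 (SE 0.49) and −2.14 (SE 0.45), the last from a fit that kept the dim probe sets. The call of the first was lost without WT replicate 2 or 5, and that of the second without D257A replicate 5 or WT replicates 2, 4 or 5.

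**Figure D2:**
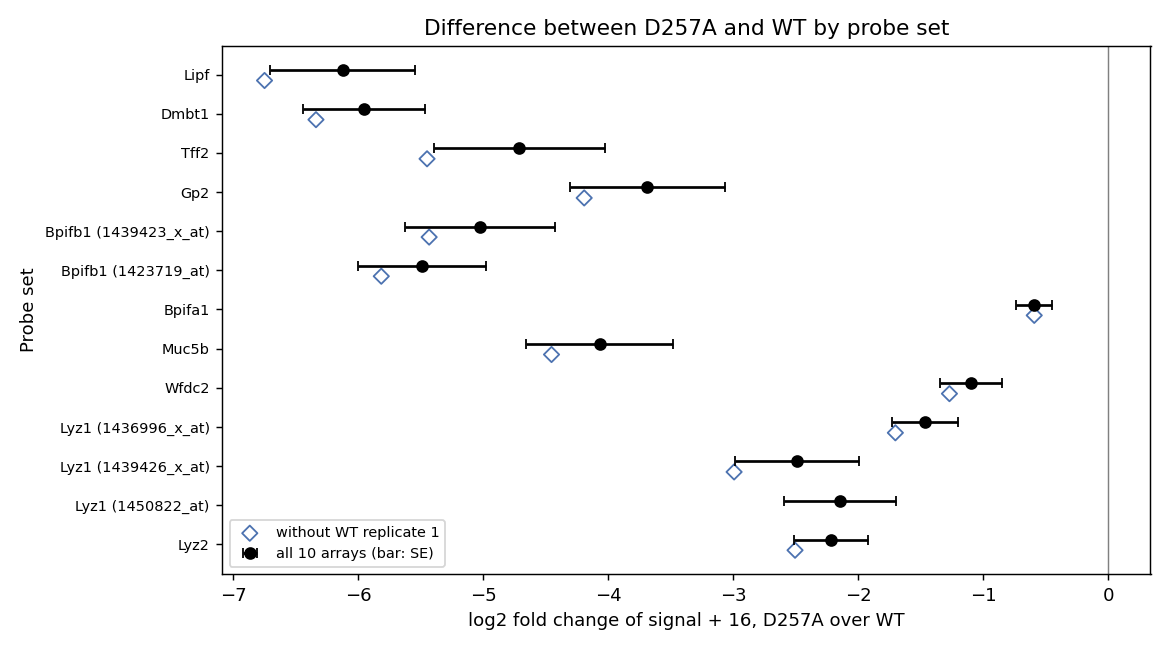
Log2 fold change of signal + 16, D257A over WT (horizontal axis), for each probe set from all 10 arrays (points, bars are standard errors) and without WT replicate 1 (open diamonds). All points lie below 0, from −6.13 for Lipf to −0.59 for Bpifa1; the third Lyz1 probe set was not tested and has no value without WT replicate 1.

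The WT arrays shared an order in these genes. Replicate 1 was the lowest WT array in 12 of the 13 probe sets and replicate 4 the second lowest in the same 12, the exception being Bpifa1. Taking 1 probe set per gene, the order with replicate 1 lowest and replicate 4 next held for 9 of the 10 genes, where it was found in 7.03% of all 11871 tested genes. WT replicate 3 was the highest in 9 of the 13 probe sets and WT replicate 5 in 4. Since the genes were picked on the group difference, whose WT side is made of these arrays, the order is a description.

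The depth of the dip on WT replicate 1 differed between genes. Its signal was 0.0697 of the mean of WT replicates 2 to 5 for Tff2, 0.112 for Lipf, 0.162 for Gp2, 0.246 for Muc5b and 0.258 for Dmbt1. For Bpifb1 it was 0.241 and 0.321 in the 2 probe sets, for Lyz1 0.171 to 0.436, for Lyz2 0.366 and for Wfdc2 0.544. Bpifa1 had no dip, and its WT replicate 1 lay inside the range of the other WT arrays. In 11 of the 13 probe sets WT replicate 1 was under 0.5 of the mean of the other WT arrays.

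WT replicate 1 nevertheless stood above every D257A array for the brightest probe set of 9 of the 10 genes, all but Wfdc2, but below the highest D257A array in the other 2 Lyz1 probe sets. The choice of genes that are lower in D257A largely fixes this count. Without WT replicate 1 the log2 fold changes were −6.75 for Lipf, −6.34 for Dmbt1, −5.45 for Tff2, −4.19 for Gp2, −4.45 for Muc5b and −0.59 for Bpifa1. The same number of probe sets, 11, was called without it.

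**Figure D3:**
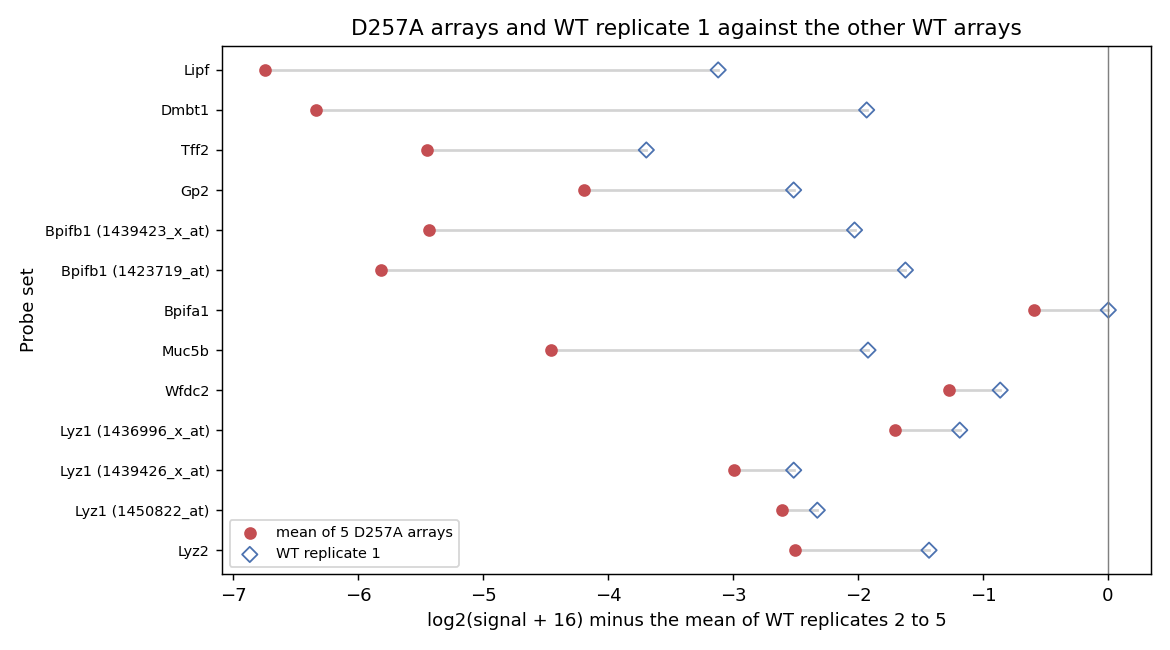
Log2(signal + 16) minus the mean of WT replicates 2 to 5 (horizontal axis) for the mean of the 5 D257A arrays (filled circles) and for WT replicate 1 (open diamonds), by probe set. For Tff2 the D257A mean lies at −5.45 and WT replicate 1 at −3.69; both distances use the same WT arrays, so they are not independent.

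Among D257A arrays no such order was shared. Replicate 1 was the lowest in 5 probe sets, replicate 4 in 4, replicate 3 in 3 and replicate 5 in 1, and the highest array was replicate 2 in 4 probe sets, replicate 4 in 3 and each of the others in 2. Lipf and Tff2 were both highest on D257A replicate 4, as was the second Bpifb1 probe set. Gp2 dropped on D257A replicate 5, where Bpifa1 and Wfdc2 had their highest D257A signal. Muc5b was highest on D257A replicate 3, where the brighter Bpifb1 probe set was lowest.

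Genes with the most similar pattern were found by centring log2(signal + 16) within each group, so that the group difference was removed, and taking the root mean square difference from the mean pattern of the 10 genes over all 10 arrays. In that mean pattern D257A arrays lay between −0.26 and 0.29 around their group mean, while WT replicate 1 lay at −1.49 and the other WT arrays between −0.18 and 0.60. The 8 closest genes were Timp4 (0.179), Wscd2 (0.186), Homer3 (0.192), Gpm6a (0.194), Exph5 (0.210), Zbtb18 (0.216), Wfdc18 (0.221) and Ak4 (0.234), against a median of 0.643 over all tested genes. WT replicate 1 was the lowest WT array in all 8, which choosing genes by likeness to this pattern largely fixes. The distances of the secretory genes themselves were wider, from 0.301 for Lyz1 to 0.927 for Muc5b. Tff2 (0.662), Bpifb1 (0.724), Gp2 (0.819) and Muc5b lay farther from the mean pattern than the median tested gene, the other members nearer. Over the WT arrays only, 3 of the 8 closest genes were shared with the 8 from Timp4 to Ak4.

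Among these 8 genes, 2 also passed the limma test. Wfdc18, a WAP-domain gene like Wfdc2, had 6347.4, 13474.1, 7290.2, 6984.0 and 6964.1 units on the D257A arrays, against 24837.8, 78825.5, 92919.8, 59190.5 and 82623.4 on the WT arrays. It fell in D257A without overlap, with a log2 fold change of −2.97 (SE 0.33, limma adjusted p = 0.00127). Exph5, which encodes a Rab27 effector of vesicle release, fell by 1.60 on the log2 scale (limma adjusted p = 0.0469), a call kept in 1 of the 10 fits on 9 arrays (up to 0.130, without WT replicate 5). The other 6 had log2 fold changes of −0.50 to −0.86 and adjusted p-values of 0.121 to 0.435, so none of these 6 was called.

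**Figure D4:**
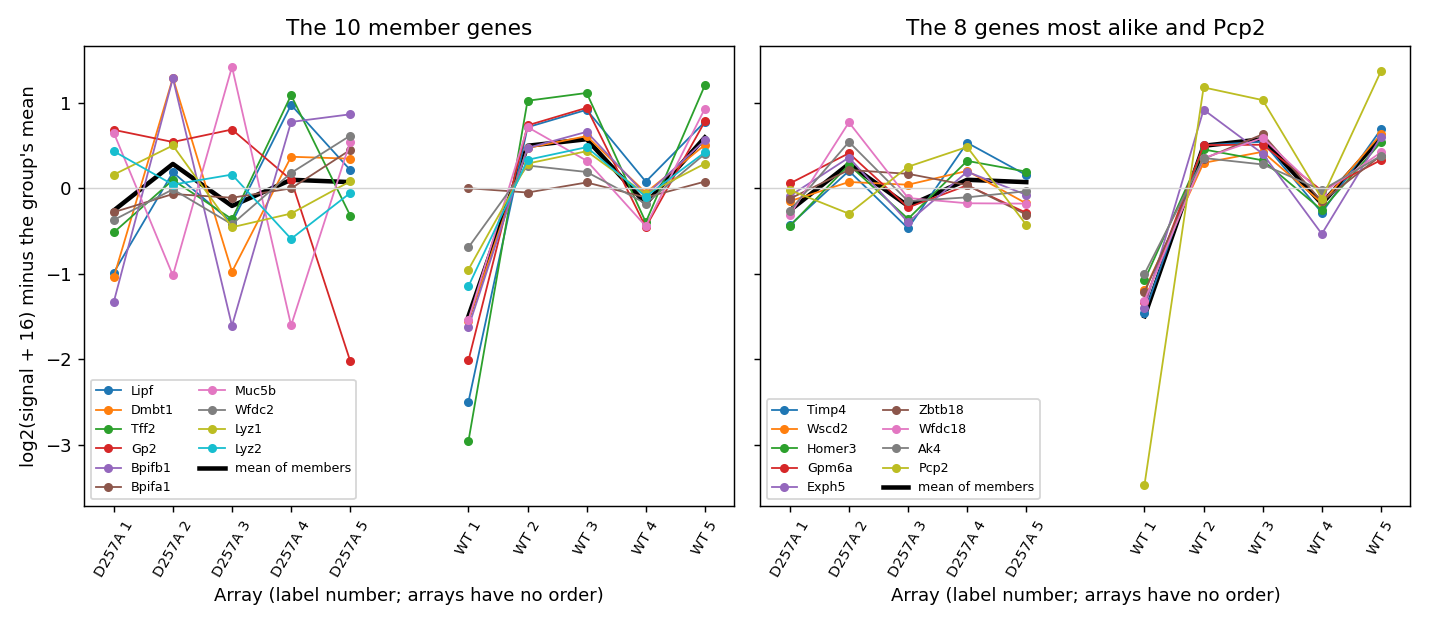
Log2(signal + 16) minus the mean of the array's own group (vertical axis) on each array, for the brightest probe set of each secretory gene (left) and for the 8 most similar genes and Pcp2 (right), with the mean of the secretory genes in black. The lines share a dip at WT replicate 1, except Bpifa1, and Pcp2 drops further there than any other line shown. The 8 similar genes were chosen for likeness to the black line, which largely fixes their dip.

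Beyond these genes, 19 lists of other genes of glands, protein families and neighbouring tissues were followed, each list without the 10 genes themselves. They name 261 genes, of which 236 have a probe set and 141 were tested. Among all 11871 tested genes 275 were called in either direction (2.32%), with 197 lower (1.66%) and 78 higher in D257A (0.657%), and the median log2 fold change was −0.02. Within the lists 20 genes were lower and 2 higher.

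No tested gene of the gastric list, which leaves out the members Lipf and Tff2, was lower in D257A. Of 12 gastric genes on the array 5 were tested, and limma called 0 of them (also 0 at an unadjusted p under 0.05); all 5 had positive log2 fold changes with a median of 0.23. Tff1, the trefoil peptide of gastric surface cells, averaged 5699 ± 1066 units in D257A and 4808 ± 195 in WT (SD, n = 5 each; log2 fold change 0.23, limma adjusted p = 0.488). The proton pump subunit Atp4b and the anion exchanger Slc26a7 had values of 0.46 (adjusted p = 0.715) and 0.31 (adjusted p = 0.502). Gkn3 and Ctse, with up to 1828.5 and 5823.6 units, gave 0.19 (limma adjusted p = 0.843) and 0.11 (limma adjusted p = 0.831). Of the 2 tested Gkn3 probe sets, 1 had the opposite sign. Signals of the gastric genes Pgc, Cblif, Gkn1, Gkn2 and Muc5ac never passed 120.9, 58.5, 177.6, 281.8 and 172.1 units on any array, below the tested range. Summed over the list, gastric signal was 14090 to 20463 units on D257A arrays and 12555 to 17301 on WT arrays.

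In the salivary list 1 of 3 tested genes was lower. Aqp5, the water channel of serous gland cells, averaged 620.2 ± 252.5 units in D257A and 2967 ± 1829 in WT (SD, n = 5 each; log2 fold change −2.05, SE 0.47, limma adjusted p = 0.0439), a call kept, among the 10 fits on 9 arrays, only without D257A replicate 2 or WT replicate 1 (adjusted p up to 0.125, without WT replicate 2). Amy1, salivary amylase, gave −0.44 (adjusted p = 0.367) and the kallikrein Klk1 0.08 (adjusted p = 0.896). The salivary secretory genes Bpifa2, Smgc (the Muc19 locus), Dcpp1, Pip and Car6 stayed at or below 579.1, 360.8, 169.0, 483.7 and 430.4 units on every array. Dcpp3 and Lpo, also untested genes of this list, reached 1303.5 and 703.1 units, each on a D257A array. Of the pancreatic list only Cela1 was tested (0.48, adjusted p = 0.382). Among its untested genes, Cpa1 and Ctrb1 did not exceed 64.2 and 87.2 units, but Prss2 and Cela3b reached 1244.3 and 1011.6. Clps had 223.9 to 483.5 units on D257A arrays and 43.9 to 192.6 on WT arrays (log2 fold change 1.43, limma adjusted p = 0.112 with no filter). Summed levels of the salivary list were 4727 to 7250 units on D257A arrays and 7215 to 10173 on WT arrays.

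Genes of airway and middle ear secretory cells were lower in part. Of 9 tested 2 were called, both lower, and 8 log2 fold changes were negative (median −0.74). Cyp2f2, a cytochrome P450 of airway club cells, averaged 9964 ± 4075 units in D257A and 29029 ± 4589 in WT (SD, n = 5 each; log2 fold change −1.61, SE 0.23, limma adjusted p = 0.00445), and no left-out array ended its call. Ltf, the iron-binding antimicrobial protein lactoferrin, averaged 8575 ± 2969 units in D257A and 41373 ± 22355 in WT (log2 fold change −2.11, SE 0.45, limma adjusted p = 0.0306), and its call was kept only without D257A replicate 1 or 2 or WT replicate 1 or 3 (up to 0.0939, without WT replicate 2). Fxyd3 gave −0.74 (adjusted p = 0.0585). Scgb1a1, the best known club cell product, stayed at or below 207.5 units on every array. It was 1 of 8 untested genes of this list, none of which was called in the fit with no filter. Agr2, another, had 23.0 to 160.2 units on D257A arrays, against 150.3, 908.8, 1550.0, 391.6 and 852.2 on WT replicates 1 to 5. Its log2 fold change was −2.62 (limma adjusted p = 0.05003 with no filter). Muc1, Muc4 and Bpifb9b gave −0.56, −0.23 and −0.42, and Muc16 was lower too. Scgb1a1, Scgb3a2 and Clca1 gave 0.95, 0.12 and 0.66. The summed level of this list was 30399 to 36195 units on D257A arrays and 54294 to 125428 on WT arrays. Ltf carried most of the spread between WT arrays, with 10408.9 units on WT replicate 1 and 32903.8 to 66639.7 on the others.

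Ciliated cells border such secretory cells in airway and middle ear linings. Of 10 tested ciliated cell genes 9 had negative log2 fold changes (median −0.78) and 1 was called: Spag6l, a protein of the ciliary central apparatus, averaged 551.9 ± 200.5 units in D257A and 1121 ± 210 in WT (SD, n = 5 each; log2 fold change −1.05, limma adjusted p = 0.0478; kept only without D257A replicate 2 or WT replicate 1, up to 0.139 without WT replicate 2). The dynein gene Dnah9 gave −0.86 (adjusted p = 0.0575) and Cfap52 −1.16 (adjusted p = 0.0892). The summed level was 12471 to 35243 units on D257A arrays and 19025 to 39980 on WT arrays. Most of that sum was 1 gene, Tppp3, with 2937.1 to 26596.5 units on D257A arrays and 6568.8 to 28869.2 on WT arrays (log2 fold change −0.06, adjusted p = 0.972).

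Among 8 tested regulators of gland and goblet cell identity, Foxa1 was lower and the other 7 were not called. Another 9 on the array were not tested, and none of these was called in the fit with no filter. There Elf5, Spdef, Bhlha15, Creb3l4 and Ern2 gave −1.62, −1.30, −1.19, −0.64 and −0.16. Nkx2-1, Ehf, Foxa2 and Foxa3 gave 0.71, 0.70, 0.60 and 0.53. Foxa1, a forkhead transcription factor of airway and gut epithelium, averaged 1025 ± 483.1 units in D257A and 3306 ± 473.8 in WT (SD, n = 5 each; log2 fold change −1.79, SE 0.28, limma adjusted p = 0.00809), and its call held in all 10 left-out fits. Sox9 and Sox10 gave −0.58 (adjusted p = 0.263) and −0.57 (adjusted p = 0.230), and each had 1 other tested probe set of the opposite sign. The list's median was −0.39.

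Few relatives of the secretory genes were called. In the limma fit 0 of 4 tested genes of the mucin family were called, and 0 had an unadjusted p under 0.05 (median 0.20), with Muc13 at 0.16 (adjusted p = 0.761) and Muc15 at 0.49 (adjusted p = 0.299). The other 13 genes of that family on the array were not tested, and 1 of them was lower in the fit with no filter: Fcgbp, which encodes a protein of the mucus gel that binds antibody, had 126.9, 186.4, 228.5, 238.3 and 284.5 units on the D257A arrays, against 3130.8, 1628.9, 951.9, 1173.4 and 1621.1 on the WT arrays (log2 fold change −2.83, limma adjusted p = 0.00183 with no filter). Its groups did not overlap, and its highest WT array was replicate 1. Muc16, a membrane mucin, averaged 391.1 ± 98.5 units in D257A and 845.3 ± 360.7 in WT (SD, n = 5 each; limma adjusted p = 0.162 with no filter). Over all lists, 95 genes were not tested, and 2 of them, Fcgbp and Krt15, were called in the fit with no filter, both lower. The lipase family (4 tested, median 0.01), the BPI fold family (2 tested, median −0.10) and the family with scavenger receptor cysteine-rich or zona pellucida domains (7 tested, median 0.03) likewise had 0 limma calls, with 0, 0 and 2 genes at an unadjusted p under 0.05. Among lipases, Lpl gave −0.57 (adjusted p = 0.573), Lipg 0.07 (adjusted p = 0.931) and Lipa 0.08 (adjusted p = 0.875; 1 of its 3 tested probe sets had the opposite sign). Among BPI fold genes, Pltp gave −0.32 (adjusted p = 0.454) and Lbp 0.12 (adjusted p = 0.773). Msr1, Tectb and Scara5, of the third family, gave 0.60 (adjusted p = 0.170), 0.36 (adjusted p = 0.386) and −0.56 (adjusted p = 0.187). Of 8 tested genes of the WAP family and secretory protease inhibitors 2 were lower, Wfdc18 as given above and Serpinb11, a serpin, which averaged 1852 ± 499 units in D257A and 4034 ± 632 in WT (SD, n = 5 each; log2 fold change −1.14, limma adjusted p = 0.0130). Slpi, a protease inhibitor of mucosal fluids with 2 WAP domains, had a log2 fold change of 1.10 (adjusted p = 0.176), and averaged 2789 ± 2254 units in D257A and 1078 ± 247 in WT.

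Of 10 tested mucosal antimicrobial genes only Ltf was called, and 6 had positive log2 fold changes (list median 0.84). S100a8, a calcium-binding protein abundant in neutrophils, averaged 69815 ± 30508 units in D257A and 31998 ± 8060 in WT (log2 fold change 1.04, limma adjusted p = 0.101), and Chil3, a chitinase-like protein of macrophages and neutrophils, gave 1.48 (adjusted p = 0.0859). Reg3g, an intestinal lectin that kills bacteria, gave −2.07 (adjusted p = 0.166) and Pglyrp1, a peptidoglycan-binding protein, −1.96 (adjusted p = 0.167), the widest differences in the other direction after Ltf.

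Lysozyme is also a product of macrophages and neutrophils, and most genes listed here for these cells had values of the opposite sign. Of 13 tested macrophage genes 0 were called in the limma fit (4 at an unadjusted p under 0.05) and 11 had positive log2 fold changes (median 0.24), with C1qb at 0.45 (adjusted p = 0.208), Tyrobp at 0.49 (adjusted p = 0.224) and Laptm5 at 0.47 (adjusted p = 0.232; 1 of its 3 tested probe sets had the opposite sign). Their summed level was 56899 to 73855 units on D257A arrays and 49045 to 64348 on WT arrays. All 12 tested genes of the neutrophil list had positive log2 fold changes (median 0.88), and Mpo and Ctsg, enzymes of neutrophil granules, were called higher. That list does not hold Ltf and Pglyrp1, whose values were −2.11 and −1.96. Mpo averaged 8257 ± 3003 units in D257A and 3679 ± 779 in WT (log2 fold change 1.12, limma adjusted p = 0.0309), a call kept only without D257A replicate 3 or 4 or WT replicate 3 (up to 0.0825, without WT replicate 4). Ctsg averaged 2351 ± 867 units in D257A and 916.8 ± 242.6 in WT (1.31, limma adjusted p = 0.0337), kept only without D257A replicate 3 or 4 or WT replicate 1 or 3 (up to 0.0846, without WT replicate 5). Ngp, a granule protein, gave 0.94 (adjusted p = 0.0613). The summed neutrophil level was 108884 to 314774 units on D257A arrays and 79375 to 128589 on WT arrays; the part of these cells in the lysozyme values was not tested.

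Plasma cells that make secretory antibody sit beside mucosal glands. Of 6 tested genes of the list 2 were lower: Igha, the immunoglobulin A heavy chain, averaged 906.9 ± 154.5 units in D257A and 4738 ± 2396 in WT (log2 fold change −2.25, limma adjusted p = 0.00239), and Jchain, which joins antibody units, averaged 1097 ± 300 in D257A and 2925 ± 475 in WT (−1.43, limma adjusted p = 0.00413). Both calls held in all 10 left-out fits. Ighm, the immunoglobulin M heavy chain, gave −0.68 (adjusted p = 0.155; 1 of its 3 tested probe sets had the opposite sign). WT replicate 1 was the lowest WT array in 4 of the 6 tested genes, where this held for 20.9% of all tested genes. It lay above every D257A array in 4 of the 6 and below every D257A array in 2. Of all tested genes 16.5% and 15.8% were so.

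All 15 tested epithelial junction and keratin genes had values below 0 (median −0.41), and 2 were called. Krt5 and Krt14, the keratin pair of basal cells, fell in D257A, with log2 fold changes of −2.24 (limma adjusted p = 0.00207) and −3.83 (limma adjusted p = 0.0103). Their highest WT signal was on replicate 1, at 8482 and 8896 units, so these genes did not share the dip of the secretory genes. Krt18, a keratin of simple epithelia, gave −0.67 (adjusted p = 0.168), and the untested Krt15, another basal keratin, −4.30 (limma adjusted p = 0.00594 with no filter). The summed level of the list was 37505 to 48524 units on D257A arrays and 52308 to 67065 on WT arrays.

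Genes of 2 tissues next to the cochlea also differed between the groups. Of 14 tested skeletal muscle genes 6 were lower and all 14 had negative log2 fold changes (median −2.87). Myh2, a fast myosin heavy chain, had 18.0, 120.6, 42.9, 49.2 and 486.4 units on the D257A arrays, against 31142.9, 18694.6, 6820.2, 13077.2 and 27121.6 on the WT arrays (log2 fold change −7.44, limma adjusted p = 0.000179). Myl1, Tnni2, Tnnc2 and Casq1, which encode contractile and calcium-handling proteins, gave −3.47 (limma adjusted p = 0.0148), −3.71 (0.0103), −3.41 (0.0266) and −2.28 (0.00648), and Tnnt3 gave −3.32 (0.0334). The calls of Tnnt3 and Tnnc2 were kept without D257A replicate 2, D257A replicate 5 or WT replicate 3 and, for Tnnc2, without D257A replicate 4, and lost in the other left-out fits (up to 0.0988 and 0.0789, both without WT replicate 5). The muscle sum was 25328 to 307938 units on D257A arrays and 213453 to 600653 on WT arrays, and it was highest on WT replicate 1.

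Of 10 tested cerebellar genes 3 were lower and all 10 had negative log2 fold changes (median −1.72). Pcp2, a gene of Purkinje cells, had 373.1, 305.2, 454.0, 535.7 and 277.3 units on the D257A arrays, against 563.6, 14524.0, 13100.3, 5884.5 and 16560.7 on the WT arrays (log2 fold change −4.02, limma adjusted p = 0.0166; lost without WT replicate 2 or 5, up to 0.0524). The other calls, Car8 and Rgs8, were kept without WT replicate 1 and, for Car8, without D257A replicate 4, and lost in the other left-out fits (up to 0.137 and 0.128, both without WT replicate 2). WT replicate 1 was lowest and WT replicate 4 second lowest in 9 of these 10 genes, the same order as in 9 of the 10 secretory genes. That order also held in 4 of 9 tested airway and middle ear secretory genes and 4 of 8 tested gland and goblet cell regulators. It held in 0 of 14 muscle genes, 0 of 11 cochlear genes and 7.03% of all tested genes. The cerebellar sum was 42779 to 63170 units on D257A arrays and 53937 to 170149 on WT arrays, lowest on WT replicate 1. Of the cochlear list itself 0 of 11 tested genes were called in the limma fit (2 at an unadjusted p under 0.05), with a median of −0.11 and the smallest adjusted p at 0.116 (Otog, −0.58), followed by Myo7a (−0.46, adjusted p = 0.262). The part that muscle or cerebellar RNA has in the values of the secretory genes was not tested.

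**Figure D5:**
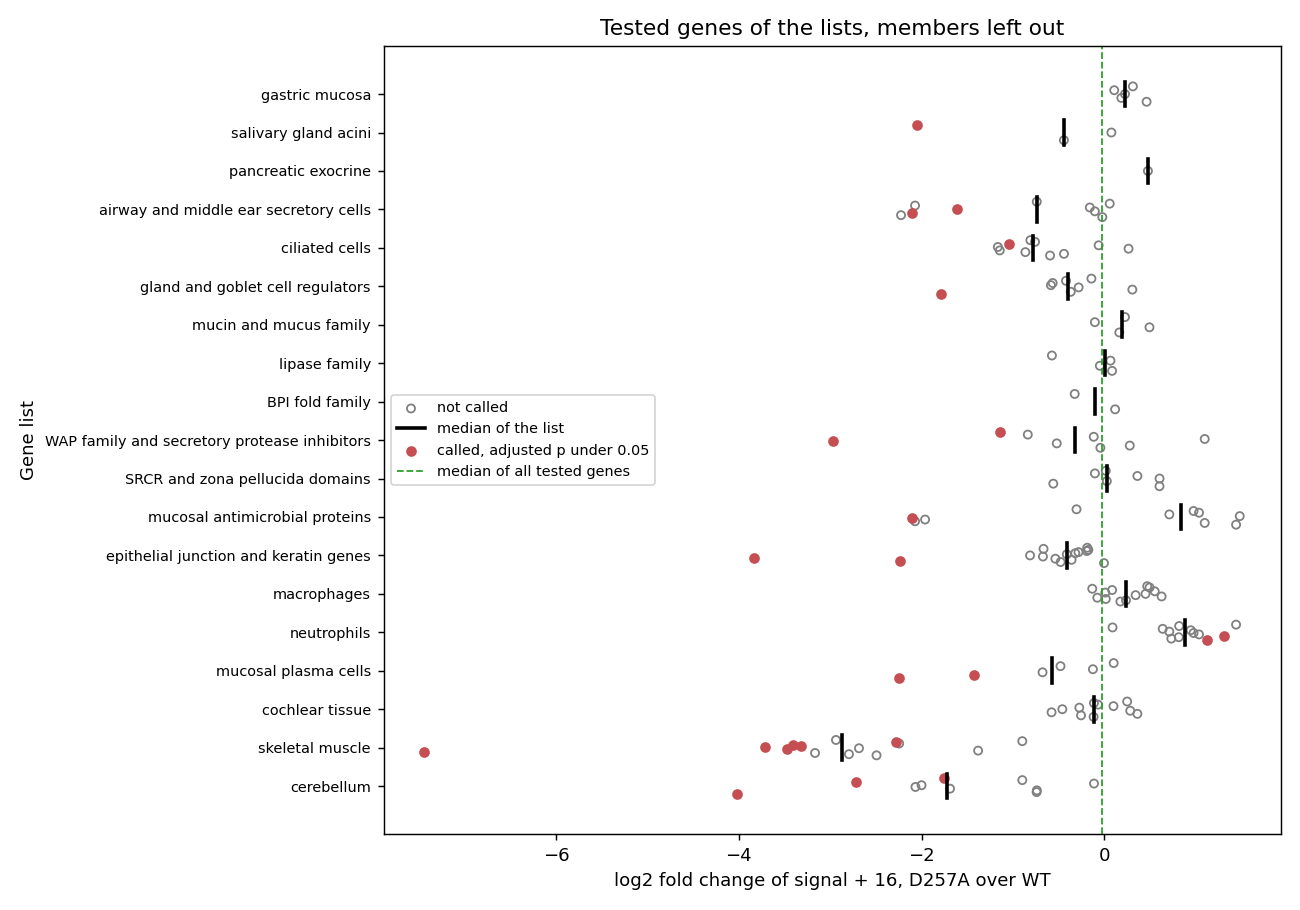
Log2 fold change of signal + 16, D257A over WT (horizontal axis), of each tested gene in the 19 lists (rows), with called genes filled, list medians as bars and the median of all tested genes dashed. Muscle and cerebellar genes lie to the left with medians of −2.87 and −1.72, while neutrophil genes lie to the right with a median of 0.88; SRCR stands for scavenger receptor cysteine-rich.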

How the data were processed

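RNA of 10 cochlea samples was measured on 1-colour Affymetrix arrays with biotin label, per the labels. Linear intensity values were deposited, and the submitters' processing notes name GCOS 1.3. How background, probe summary and scaling were set is not given in the sources used here. The table holds 45101 probe sets, of which 64 controls were left out because they are filled for 1 array only. The platform table gave 1 gene to 34945 probe sets, several to 932 and none to 9160; list names were updated through RefSeq synonyms. The number of arrays limits the precision, and no detection call or scan date was used.

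Signals were kept on the authors' scale and transformed as log2(signal + 16). The 50% of probe sets with the highest mean log2 signal (22518) entered a limma model with group as its term (limma 3.58.1, R 4.3.3; lmFit, then eBayes with a trend). P-values were two-sided, adjusted by Benjamini-Hochberg across these probe sets, and called under 0.05; the fit was tested on simulated data. A gene of a list was represented by its brightest probe set. The members and lists were chosen with earlier results of these data known. The genes named were every member probe set, up to 5 called genes per direction of each list (or the 3 smallest p where fewer than 3 were called), the 8 genes most alike, Myh2 and Pcp2; a few defining markers and other list genes were named beside them after their values were seen. Alternatives changed the constant, scaling, filter, trend, weights, replicate block, arrays and probe set rule. Replicate numbers were not taken as pairs: same-numbered samples deviated together with correlations of −0.34 to 0.18. Promoter windows are RefSeq's.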

Additional observations from a re-analysis of the deposited data

Results flagged for a closer look

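A sample far from the rest of its group of 5 was found for 12 of 146 groups of arrays examined, where chance flags about 1 in 20. The value given is the gap to the nearest array divided by the group's range, and the limit for 5 arrays is 0.71. Gap and range were taken on the log2 scale of the fits, while the signals printed beside them are linear units. Among the secretory genes 3 of 26 groups were flagged. Lipf was far lower on WT replicate 1 than on any other WT array (8034.8 units, next 47957.9; gap 0.754), and so was the dim Lyz1 probe set (274.5 units, next 1093.5; gap 0.718). Gp2 was far lower on D257A replicate 5 than on the other D257A arrays (55.4 units, next 294.1; gap 0.782).

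Of the genes most alike, Wfdc18 (13474.1 units, next 7290.2; gap 0.816) and Ak4 (1640.3 units, next 1095.0; gap 0.717) were highest on D257A replicate 2. WT replicate 4 was the lowest WT array by far for 4 list genes: Dnah9 (1112.9 units, next 1329.1; gap 0.783), Cfap52 (777.1 units, next 1215.1; gap 0.713), Slpi (649.3 units, next 1101.0; gap 0.793) and Ctsg (498.6 units, next 921.8; gap 0.773). Foxa1 was highest on WT replicate 2 (4134.2 units, next 3245.0; gap 0.729), C1qb on WT replicate 3 (5420.3 units, next 3606.4; gap 0.772) and Igha on D257A replicate 1 (1176.2 units, next 895.0; gap 0.724).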

How the results depend on the processing

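The log2 fold changes of the 12 tested probe sets stayed negative in all 237 alternative values, from −6.75 to −0.52, and none moved by more than the spread between arrays. Between 8 and 12 of the 12 were called in fits on the same 50% of probe sets (9 of 9 in the brightest 30%, 12 of 13 with no filter), with 8 when WT replicate 2 or WT replicate 5 was left out, and 10 when WT replicate 3 and D257A replicate 2 were both left out, an alternative chosen after seeing the data. The fit over all probe sets called 513. It called 322 in the brightest 30%, 1217 with array weights and 188 with the replicate number as a block, which ended the calls of both bright Lyz1 probe sets. Leaving out 1 array gave 168 (without WT replicate 2) to 574 (without WT replicate 3) calls, with 299, 323, 277 and 177 without D257A replicate 1, D257A replicate 5, WT replicate 4 and WT replicate 5. Calls higher in D257A made up 45.4%, but 26.6% after median centring, which moved the median of all probe sets to −0.10, 34.0% without WT replicate 1 and 59.1% without D257A replicate 4. The 22 called list genes became 43 with array weights, 17 with the block and 12 to 25 with 1 array left out; 12 were left without WT replicate 2 or 5, 13 without WT replicate 4 and 14 without D257A replicate 1. Of the 8 genes most alike, 3 were shared over the WT arrays only and 5 with a constant of 64. The cause of these shifts was not tested. Signals under 577.4 units, which include all D257A values of Tff2, Gp2 and Muc5b, have no detection call here, so their folds have no stated bound.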

Other observations

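Some cerebellar genes were lower on WT replicate 1 than on any D257A array. This held for 5 of the 10 tested cerebellar genes, while 2 were above every D257A array there; 15.8% and 16.5% of all tested genes were so. Zic1, a transcription factor of cerebellar granule cells, had 16520.7, 14284.8, 11246.1, 11338.7 and 12228.7 units on the D257A arrays, against 3431.0, 21014.6, 24953.3, 13117.1 and 23040.8 on the WT arrays (log2 fold change −0.11, limma adjusted p = 0.927). Gabra6, a granule cell receptor subunit, had 843.4 to 1622.0 units on the D257A arrays, against 199.7 on WT replicate 1 and 5179.8 to 12711.6 on the other WT arrays. These genes were singled out after their values were seen, and no test of the array order was made.

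Pigr, the receptor that carries immunoglobulin A across gland epithelium, had 477.5, 1360.3, 424.5, 410.1 and 903.1 units on the D257A arrays, against 766.3, 6683.6, 7457.7, 2079.6 and 3164.0 on the WT arrays. Its log2 fold change was −2.22 (limma adjusted p = 0.0594), it was not called, and it too was lowest on WT replicate 1 and second lowest on WT replicate 4 among the WT arrays. Pigr was also named after its values were seen.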
